A study of Caenorhabditis elegans with 4 samples.

Results

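The regions described here are stretches of the Caenorhabditis elegans genome that both replicates of an LSY-2 ChIP-seq experiment placed in their peak lists but that the study's combined peak list leaves out. They were chosen by position: a nuclear replicate 1 interval had to overlap a replicate 2 interval by at least 50% of the length of each and to share not even 1 bp with a combined peak. Counting repeated intervals once, 29962 nuclear replicate 1 intervals were examined, 13095 of them (43.7%) met the overlap rule, and 7245 of these (55.3%, 95% Wilson interval 54.5 to 56.2) lay outside the combined list. They are compared mainly with the 5850 shared intervals that do overlap a combined peak, and with 15740 replicate 1 intervals that lie outside the combined list and did not meet the overlap rule. The remaining 1127 intervals overlap the combined list without meeting the rule. Counted from replicate 2, there were 7157 shared regions outside the combined list.

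The chromatin came from hermaphrodite first-stage larvae (fed L1) of strain OP367, raised at 20 °C and crosslinked with 2% formaldehyde. The strain carries the unc-119(ed3) allele and the transgene wgIs367, which holds lsy-2 fused to TY1, EGFP and FLAG tags together with unc-119, was introduced by bombardment and was outcrossed. All 4 samples share this background: 2 ChIP samples, collected with antibodies against GFP, and 2 input samples, which are not analysed here. The protein that was precipitated is thus the tagged transgene product of 1 strain in whole larvae, so regions bound in different cells are pooled, and fewer bound cells and weaker binding per cell cannot be told apart. Whether the replicates came from separate cultures is not stated.

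LSY-2 is a C2H2 zinc-finger protein that regulates transcription. It is best known from the ASE taste neurons, in which the left cell differs from the right one, and where it acts upstream of the microRNA lsy-6 in the left cell. In ChIP-seq, fragments bound by a factor pile up around its sites, and a peak caller lists the places where they exceed a background. The source field of all lists names SPP, such a caller, and the irreproducible discovery rate (IDR), which compares peak ranks between replicates and keeps peaks whose ranks are reproducible. Ranks here are the numbers in the authors' peak names, where 1 is the best. They follow the authors' score closely over a whole list (Spearman's rho -0.997 in replicate 1 and -0.998 in replicate 2) but not at every step: the score is 3.53 at rank 5031 of replicate 1, 3.64 at rank 6561 and 3.45 at rank 7033. Regions are called strong or weak here by rank. Since the source field names a method that works on ranks, and how the combined list was made is not recorded further, the ranks and scores of the regions left out of it may belong to their selection and are given as a description, without a test.

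Most of the regions outside the combined list were weak in both replicates. Their rank in replicate 1 had a median of 14952 (quartiles 9781 and 21535, range 1478 to 29995), and that of their partner in replicate 2 had a median of 14477 (quartiles 9482 and 21406, range 1089 to 29998). In the shared regions that overlap the combined list, the medians were 3410.5 and 3338.5 in replicates 1 and 2. The authors' score, whose scale is not given, had a median of 0.921 in replicate 1 and 0.810 in replicate 2 outside the combined list, against 3.99 and 3.54 within it. The top score of replicate 1 was reached by 111 of the 7245 regions (1.53%, 1.27 to 1.84), against 4093 of the 5850 within the list (69.97%, 68.8 to 71.1). The unshared intervals outside the list were weaker again in replicate 1, with a median score of 0.513 and a median rank of 19480.5. The quartile ranges of the regions outside and within the list did not meet in either replicate, while their full ranges overlapped.

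The change from inside to outside the combined list was spread over many classes of the worse rank and was steeper by the better rank. When each shared region was placed by the worse of its ranks, 0 of 830 regions within rank 1000 were outside the list, which allows a share of up to 0.361% (3 counts of the total; the upper Wilson bound is 0.461%). The share outside was 10.02% at worse ranks 6001 to 7000 (52 of 519 regions), 26.1% at 7001 to 8000 (122 of 467), 53.3% at 8001 to 10000 (447 of 838) and 75.5% at 10001 to 12000 (589 of 780). Placed by the better rank, 4.95% were outside at 3001 to 4000 (57 of 1152) and 20.4% at 4001 to 5000 (214 of 1047). By that rank the share was 49.3% at 5001 to 6000 (467 of 948) and 80.1% at 6001 to 7000 (647 of 808). Even among worse ranks 25001 to 30000, 86 of 1902 regions overlapped a combined peak and 95.5% did not. Ranks on both sides of 6064, the size of the combined list, occurred outside and within it. Of the 7245 regions, 6460 (89.2%) ranked beyond 6064 in both replicates, 733 (10.1%) in only one of them, and 52 in neither. Of the 733, 324 had the better rank in replicate 1 and 409 in replicate 2, and the median of the worse rank was 14158.

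**Figure D1:**
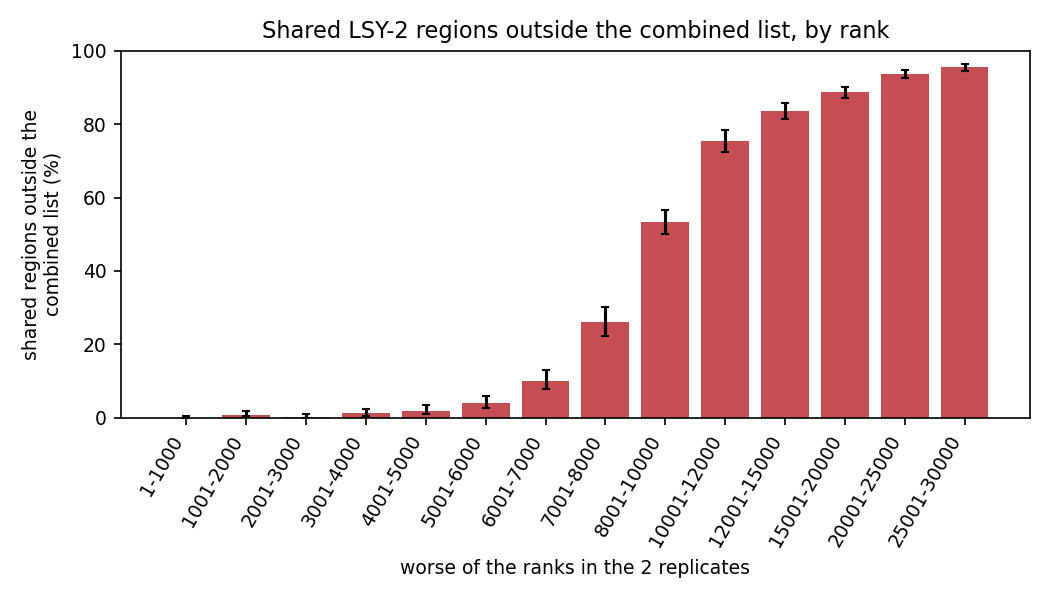
Share of shared LSY-2 regions that lie outside the combined list (percent, y axis) in classes of the worse of the ranks in the 2 replicates (x axis, classes of unequal width). Error bars are 95% Wilson intervals over regions; the share passes from 0 of 830 regions in the first class to 95.5% in the last.

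Part of the shared regions inside the list with a weak worse rank lay on a combined peak with stronger intervals. These regions were chosen by the worse rank alone, and the better rank could be strong. The median ratio of the worse to the better rank was 3.76 within the list at worse ranks 15001 to 20000 and 4.31 beyond. Outside the list it was 1.60 and 1.68. Of 396 shared regions that overlap the combined list with a worse rank beyond 15000, 230 lay on a combined peak that a better-ranked replicate 1 interval also overlapped, and 299 did so when better-ranked intervals of either replicate were counted. For 165 of the 396, the best intervals on the combined peak ranked within 6064 in both replicates. The 5850 shared intervals fell on 5531 distinct combined intervals in all. The regions outside the list were also not all separate from each other, since the 7245 intervals had 6992 distinct partners in replicate 2 and 506 of them shared a partner.

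A small set of regions outside the combined list was strong in both replicates. In 15 of the 7245 regions both ranks were within 4000, where 2759 shared regions overlapped the combined list. The strongest by the worse rank was on chromosome IV at 9884245 to 9884614 (WS220, the build of all positions here), with rank 1658 in replicate 1 and 1647 in replicate 2 and an overlap of 86.5%. The next was on chromosome I at 8511252 to 8511621, with ranks 1733 and 1146 in replicates 1 and 2. A narrow interval of 121 bp on chromosome III at 6116571 to 6116691 had ranks 1781 and 1089. These 3 regions had the top score in both replicates and lay 10001, 8587 and 16690 bp from the nearest combined peak.

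The best region on each other chromosome was of the same kind. Chromosome V held 1 at 12041109 to 12041478, with ranks 1478 and 1991 in replicates 1 and 2, the best replicate 1 rank of any region outside the list. Chromosome II held 1 at 8162247 to 8162616, with ranks 2486 and 1966. On X the best was at 3049233 to 3049602, with ranks 2991 and 3475. The first 2 of these had the top score in both replicates, and the region on X had it in replicate 1 only.

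The others among the best 10 were on chromosome IV at 9386032 to 9386401 (ranks 1810 and 1683 in replicates 1 and 2), V at 5425043 to 5425412 (2166 and 2952), III at 4380808 to 4381177 (3310 and 2963) and I at 7926290 to 7926659 (3536 and 2912). All 15 had the top score in replicate 1 and 9 had it in replicate 2. The ratio of the worse to the better rank had a median of 1.16 and a highest value of 1.65. They were spread over the genome, with 4 on I, 3 on X and 2 on each other chromosome. Of the 12 autosomal ones, 8 lay in the central segment of their chromosome, a number too small to establish an excess. Among all shared autosomal regions with worse ranks up to 6000, central segments held 1465 and outer segments 1885. Neither the labels nor the file headers give the reason for leaving the 15 regions out.

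The ranks of the strong regions outside the list were compared between replicates. Among the 3085 shared regions whose better rank was within 3000, 16 (0.519%) were outside the combined list and 3069 overlapped it. The ratio of the worse to the better rank had a median of 1.44 in the 16 and 1.33 in the 3069. None of the 16 and 204 of the 3069 had a worse rank beyond 6064, a difference that so small a group cannot establish. The largest ratio among the 16, of 2.46, was on X at 4457918 to 4458287, with ranks 2276 and 5597 in replicates 1 and 2. Next were a region on III at 8265629 to 8265998 with ranks 5381 and 2524, and a region on X at 11934857 to 11935226 with ranks 5438 and 2616. Last came a region on I at 4557058 to 4557427 with ranks 2700 and 4747, and a region on II at 10099847 to 10100216 with ranks 4451 and 2582. Both replicates thus had cases of the better rank.

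Over all regions outside the list, the ranks of the replicates were only loosely related. Spearman's rho across the 7245 regions was 0.165 for ranks and 0.166 for scores, against 0.746 and 0.396 across the 5850 regions within the list. These are descriptions across regions, which share the same 2 libraries, and the regions of the 2 groups cover different ranges of rank. The ratio of the worse to the better rank had a median of 1.53 outside the list and 1.38 within it. In every class of the worse rank the order was the other way, with the smaller median ratio outside the list. It was 1.16 outside and 1.23 within for worse ranks up to 4000. At 8001 to 10000 the medians were 1.26 and 1.89, and at 10001 to 15000 they were 1.44 and 2.67. The higher pooled median outside the list thus did not hold among regions of like worse rank. Counted from replicate 1, the better rank was in replicate 1 for 48.5% (47.4 to 49.7) of the 7245 regions. Within the list this share was 47.9% (46.7 to 49.2). Counted from replicate 2, the better rank was in replicate 2 for 51.3% of the regions outside the list and 50.3% of those within it. Outside the list it was thus slightly more often in replicate 2 by both counts. Within the list the count from replicate 2 was close to even.

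**Figure D2:**
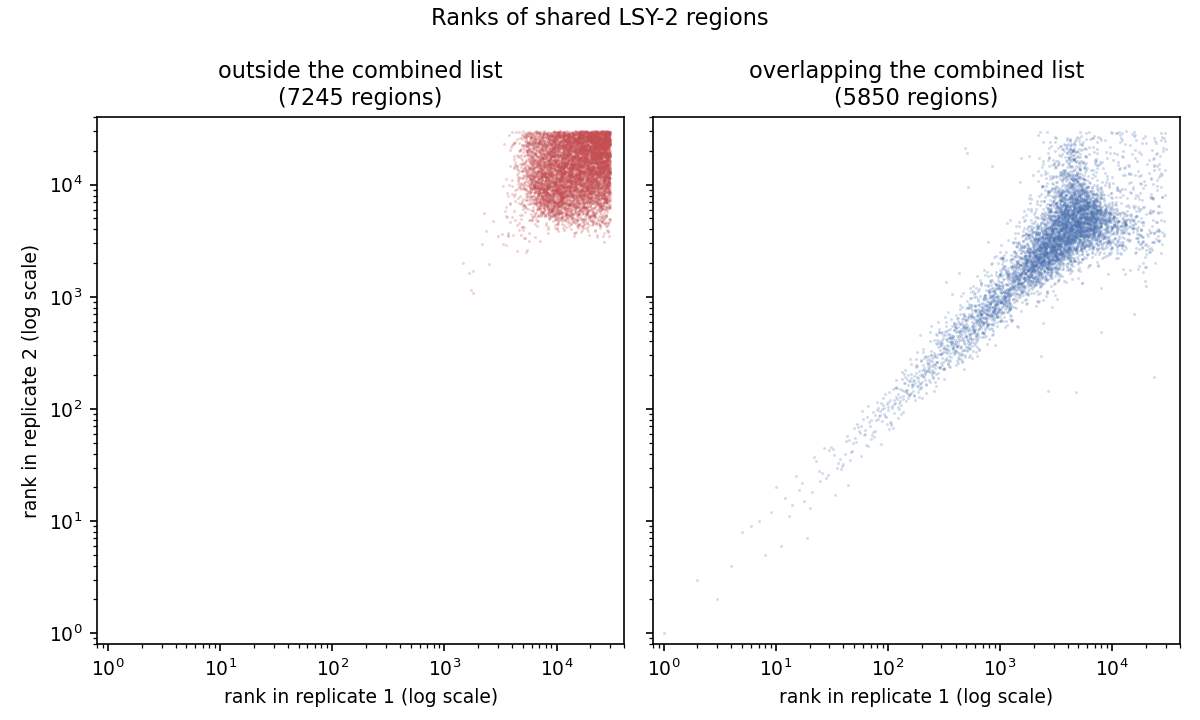
Rank in replicate 2 (y axis, log scale) against rank in replicate 1 (x axis, log scale) for shared LSY-2 regions outside the combined list (left, 7245 regions) and overlapping it (right, 5850 regions), 1 point per replicate 1 interval. The left panel holds a broad cloud of weak ranks with a short tail of 15 regions within rank 4000 in both replicates, while the right panel follows the diagonal, with arms of regions weak in 1 replicate.

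The intervals of the regions outside the list were nearly all of a single width, and the paired intervals were less closely aligned than within the list. All but 2 of the 7245 regions (99.97%, 99.9 to 99.99) had the common width of 370 bp in replicate 1, against 79.6% (78.6 to 80.6) of the shared regions within the list, where widths ran from 92 to 789 bp. The unshared intervals outside the list had the same width in 99.91% of cases, so the single width was common to both groups outside it. From replicate 2, all but 2 of 7157 regions outside the list were 320 bp wide, against 81.3% of those within it and 99.98% of the unshared intervals. The centres of the paired intervals lay a median of 65 bp apart outside the list (quartiles 30 and 107) and 27 bp apart within it (quartiles 10 and 58). The overlap rule allows no more than 160 bp between intervals of these common widths. Centres agreed to 25 bp or better in 21.6% (20.6 to 22.5) of the regions outside the list and in 48.6% (47.4 to 49.9) of those within it. The offset had no direction, with a median of 0 bp outside the list.

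The alignment was closest at the best ranks in both groups and then grew steadily looser only within the list. For worse ranks within 4000, the median distance between centres was 19 bp in the 15 regions outside the list and 16 bp in the 2759 within it. For worse ranks 4001 to 6000 it was 51.5 and 37 bp (34 and 1128 regions), and for 6001 to 8000 it was 79 and 44 bp (174 and 812 regions). At 8001 to 10000, 10001 to 15000 and 15001 to 20000 it was 64, 62.5 and 64 bp outside the list, and 46, 51 and 55.5 bp within it. Beyond 20000 it was 67 and 74 bp (3559 and 202 regions). The distance was thus greater outside the list in each class up to 20000 and smaller beyond it, and these differences were not tested.

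**Figure D3:**
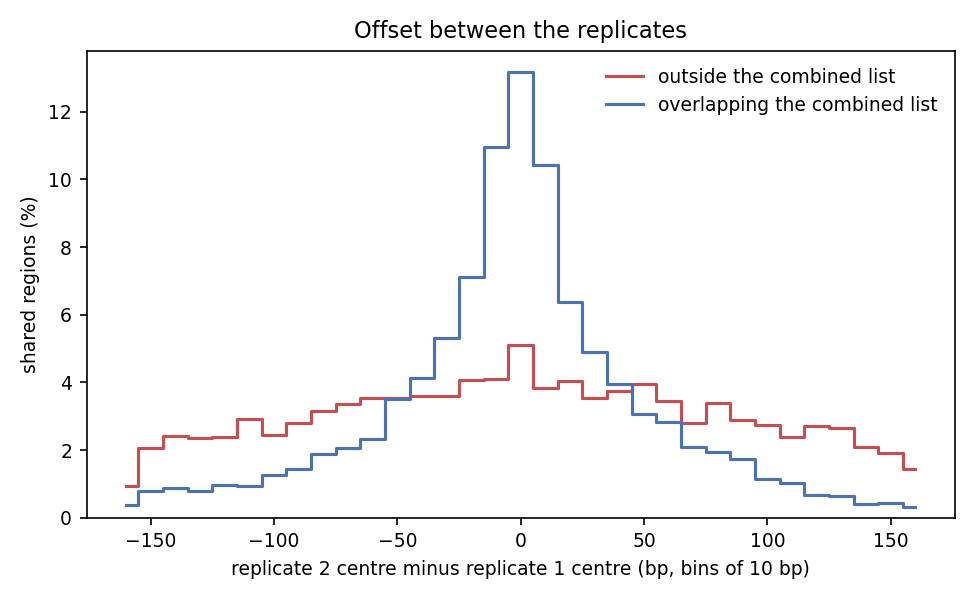
Distance from the replicate 1 centre to the replicate 2 centre (x axis, bp, bins of 10 bp) as the percent of shared LSY-2 regions (y axis), outside the combined list (red) and overlapping it (blue). The bin at zero holds 5.12% of regions outside the list and 13.2% of regions overlapping it, and the overlap rule ends both curves at 160 bp.

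Intervals lay on both sides of the limits of the rule. A total of 32 regions had an overlap of exactly 50%, and 128 lay between 50% and under 51%, with median ranks of 15124.5 and 17701.5 in replicates 1 and 2. The 88 intervals outside the list with an overlap of 49% to under 50% had median ranks of 12808.5 and 14637. Just inside the limit, at 50%, were regions on I at 13345228 to 13345597 (ranks 5523 and 7310 in replicates 1 and 2), V at 19049001 to 19049370 (7033 and 24256) and I at 10062880 to 10063249 (7443 and 20457). Just outside, at 49.7%, were intervals on II at 13675137 to 13675506 (5534 and 10115), II at 8115149 to 8115518 (6346 and 17097) and IV at 3645875 to 3646244 (6561 and 8797).

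At the other limit, the region nearest a combined peak was on II at 11348059 to 11348428 (ranks 4909 and 16709 in replicates 1 and 2), which adjoined it with a gap of 0 bp. A region on I at 9512252 to 9512621 (5820 and 9068) lay 3 bp away and another on I at 22445 to 22814 (5031 and 6037) lay 7 bp away. The shared regions with the smallest overlap with a combined peak shared 1 bp on II at 7836762 to 7837131 (4489 and 20398), 6 bp on III at 3650398 to 3650767 (10057 and 16716) and 8 bp on II at 8742244 to 8742613 (21604 and 7725). Such cases were few: 23 regions outside the list lay under 100 bp from a combined peak, and 10 shared regions in the list were covered by one over less than 10% of their length.

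Regions outside the list lay about as far from combined peaks as combined peaks lay from each other. The median gap to the nearest combined peak, from edge to edge, was 2956 bp for the 7245 regions (quartiles 1071 and 8311). It was 2806.5 bp from the shared regions within the list to the next combined peak that they did not overlap, and 3795 bp for the unshared intervals outside the list. A gap under 1000 bp was found for 23.1% (22.2 to 24.1) of the regions outside the list, 24.6% (23.5 to 25.7) of those within it and 19.1% (18.5 to 19.7) of the unshared intervals. Counted from replicate 2, the shares were 23.1%, 24.0% and 20.2%. Most regions outside the list were thus 1000 bp or more from a combined peak, and 79.4% lay within 10000 bp of one.

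**Figure D4:**
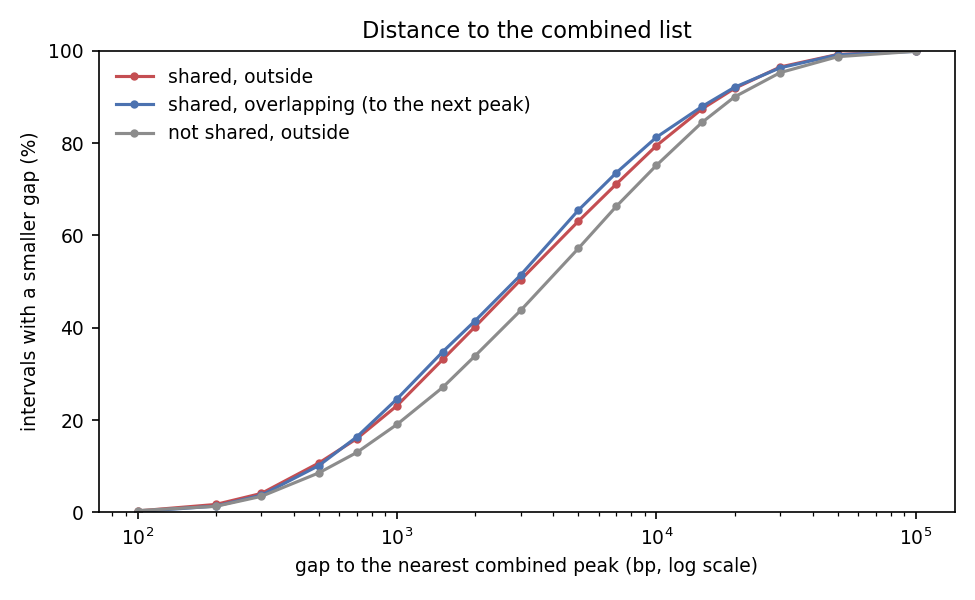
Percent of intervals (y axis) whose gap to the nearest combined peak is smaller than the value on the x axis (bp, log scale), for shared LSY-2 regions outside the combined list (red), shared regions overlapping it, measured to the next combined peak (blue), and unshared intervals outside it (grey). At 1000 bp the curves stand at 23.1%, 24.6% and 19.1%.

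The difference between shared and unshared intervals outside the list varied with rank. For replicate 1 ranks beyond 20000, a combined peak lay within 1000 bp of 20.9% (19.3 to 22.6) of 2215 shared regions and of 15.6% (14.8 to 16.4) of 7498 unshared intervals. At ranks 8001 to 10000 the shares were 25.2% (22.3 to 28.3) of 794 and 24.3% (21.7 to 27.1) of 951. At ranks 4001 to 6000 the order was the other way, with 24.9% (20.5 to 29.9) of 321 shared regions and 37.2% (31.9 to 42.7) of 304 unshared intervals. Of 7 classes of the worse rank, the strongest had the largest median gap. None of the 15 with both ranks within 4000 was closer than 1593 bp to a combined peak, and their median gap was 9360 bp, against a gap to the next combined peak of 3207 bp in the 2759 shared regions of those ranks within the list. The 52 with both ranks within 6064 had a median gap of 7896.5 bp, against 3024 bp for the 3913 within the list.

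Some regions lay far from any combined peak. In 58 of the 7245 regions the gap was 50000 bp or more, and 25 of these were on X and 21 on V, with 5 each on I and IV and 1 each on II and III. V and X had the longest spans and held the fewest shared regions within the list per Mb, at 39.2 and 52.6. Chromosome IV was close to X in both, with 52.8 per Mb, yet held only 5 of the 58. Gaps of 50000 bp or more made up about the same small part of the other groups, with 51 of the 5850 shared regions within the list, measured to the next combined peak, and 202 of the 15740 unshared intervals. For those groups the counts are not split by chromosome here. The largest gap was 101356 bp, on X at 3261238 to 3261607, where the ranks were 11560 and 26505 in replicates 1 and 2. The next was 99069 bp, on X at 47452 to 47821, with ranks 12447 and 9386. Median ranks of the 58 were 18972.5 and 14576 in replicates 1 and 2. The strongest of them by the worse rank was the region on II at 10099847 to 10100216 given above, 54485 bp from a combined peak.

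Over the chromosomes, the regions outside the list had the same order of density as those within it, from III, I and II to IV, X and V. Chromosome III held 100.4 regions per Mb outside the list and 84.8 within it, chromosome I 85.0 and 70.0, chromosome II 75.9 and 62.3, and chromosome V 51.95 and 39.2. Chromosome IV held 67.9 outside and 52.8 within, and X 64.8 and 52.6. IV and X lay close together in both groups. The unshared intervals had the same order, with 219.4 per Mb on III, 182.4 on I, 152.9 on II, 150.9 on IV, 147.3 on X and 114.1 on V. Counted from replicate 2, the unshared intervals were slightly denser on IV (159.3) than on II (156.9). The share of shared regions that were outside the list ran from 54.2% (52.3 to 56.1) on III to 57.0% (54.8 to 59.2) on V, and the Wilson intervals of these extremes overlap. On X it was 55.2% (53.0 to 57.3). From replicate 2 it ran from 54.5% on III to 57.2% on V. X made up 15.8% (15.02 to 16.7) of the regions outside the list, 15.9% (15.02 to 16.9) of those within it and 16.6% (16.0 to 17.2) of the unshared intervals.

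Along the autosomes, the regions outside the list were denser in the middle, but less so than those within it. In C. elegans, the centres of autosomes are rich in conserved and highly expressed genes, while the arms hold more repeats and recombine more. With each chromosome divided into 3 segments of equal length, the central segment held 1.27-fold the density of the outer ones outside the list (geometric mean of 5 autosomes), against 1.58-fold within it and 1.08-fold for unshared intervals. Outside the list the ratio was 1.34 on I, 1.39 on II, 1.10 on III, 1.10 on IV and 1.43 on V. Within the list it was 1.65, 1.64, 1.40, 1.37 and 1.91 in the same order, higher on each of the 5 autosomes. For unshared intervals it was 1.07, 1.17, 0.856, 0.959 and 1.42. On X the ratio was below 1 in all groups, at 0.921 outside the list, 0.863 within it and 0.995 for unshared intervals. Counted from replicate 2, the mean autosomal ratios were 1.27, 1.59 and 1.04 in the same order of groups. No test was made, because 2 replicates allow none and neighbouring regions are not independent.

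**Figure D5:**
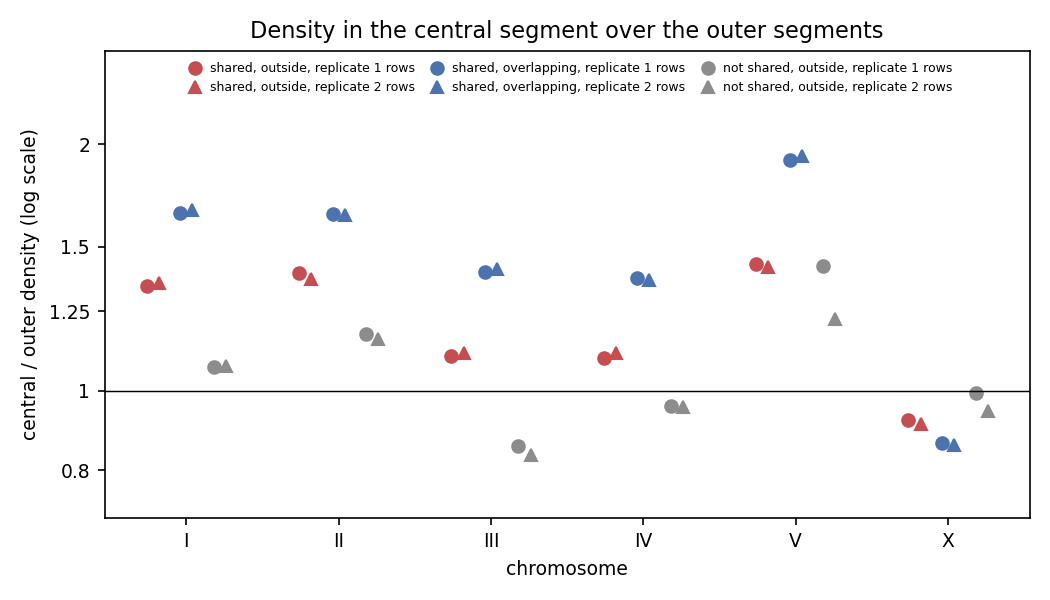
Density of intervals in the central segment of each chromosome over that in the outer segments (y axis, log scale) for chromosomes I to V and X (x axis). Red marks are shared LSY-2 regions outside the combined list, blue marks shared regions overlapping it and grey marks unshared intervals outside it; circles are counted from replicate 1 and triangles from replicate 2, and the line marks equal density. On autosomes I to V the red marks lie below the blue ones, and on I to IV above the grey ones. On V the red and grey marks nearly meet from replicate 1 (1.43 and 1.42), and red is higher from replicate 2 (1.42 and 1.22).

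This central excess differed between classes of replicate 1 rank. Among regions outside the list with replicate 1 ranks of 6001 to 8000 the mean autosomal ratio was 1.47 (734 regions on all chromosomes), at 10001 to 15000 it was 1.36 (1754 regions), and beyond 20000 it was 1.05 (2215 regions). For unshared intervals it was 1.61, 1.18 and 0.958 in the same classes. At ranks 4001 to 6000 it was 1.82 in the 321 shared regions and 1.56 in the 304 unshared intervals. As a share, 52.1% (50.7 to 53.6) of the shared regions in central autosomal segments were outside the list, against 57.6% (56.4 to 58.8) in the outer segments. Within classes of the worse rank, the shares at 8001 to 10000 were 49.8% (44.0 to 55.7) in the centre and 55.3% (50.4 to 60.1) in the outer segments, a gap like that of all ranks. At 10001 to 15000 they were 79.8% and 82.2%, and beyond 20000 they were 94.1% and 95.4%. By the worse rank, the mean autosomal ratio of the regions outside the list did not fall steadily: it was 1.23 at 8001 to 10000, 1.49 at 10001 to 15000, 1.33 at 15001 to 20000 and 1.14 beyond. For worse ranks up to 6000 the order of the shares was the other way, on few regions and with Wilson intervals that overlap. There, 24 of 1465 (1.64%, 1.10 to 2.43) were outside the list in the centre and 17 of 1885 (0.902%, 0.564 to 1.44) in the outer segments.

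At a finer scale, the regions outside the list were found nearly throughout the nuclear genome. The 97 whole 1 Mb bins held 15 to 129 of them, with a median of 72. The fullest was on I at 9000001 to 10000000, with 129 regions outside the list and 125 shared regions within it, and the emptiest was on V at 17000001 to 18000000, with 15 and 12. Spearman's rho over the 97 bins was 0.817 between the counts outside and within the list, and 0.857 between the regions outside the list and the unshared intervals, as descriptions of counts from the same libraries. Within a chromosome the first of these ran from 0.873 on V (20 bins) down to 0.372 on IV (17 bins), and the second from 0.900 on V down to 0.348 on III (13 bins). Of 999 whole windows of 100 kb, 59 held no region outside the list. These were 30 of 209 windows on V, 13 of 152 on II and 7 of 177 on X. On IV they were 5 of 174, on I 4 of 150 and on III 0 of 137. The 59 windows also held few other intervals, with 51 of the 5850 shared regions within the list and 137 of the 15740 unshared intervals. The fullest window, on III at 10600001 to 10700000, held 25 regions outside the list, 10 shared regions within it and 26 unshared intervals.

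Most regions outside the list had no other such region close by. Combined peaks and unshared intervals were not counted as neighbours here, and the shares below were not computed for the other groups. With centres within 1 kb of the next joined into runs, the 7245 regions formed 6201 runs, of which 5341 were single regions, 712 were pairs and 117 held 3 regions. In all, 26.3% of the regions were in runs of 2 or more, and 748 (10.3%) overlapped another such region of the replicate 1 list. The longest run held 6 regions on II at 2975840 to 2979059, with 5 distinct partners in replicate 2 and replicate 1 ranks of 6595 to 20817. The next 2 runs in order of size and compactness held 5 regions each. The first, on II at 2501685 to 2504023, came within 492 bp of a combined peak, and the second, on III at 10760698 to 10763229, lay at least 1313 bp from one.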

How the data were processed

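LSY-2 ChIP-seq peak lists were used: 1 list for each of 2 ChIP replicates (30000 entries each) and 1 combined list (6064 entries). Per the file headers, positions are in WormBase WS220, and the source field of each entry names SPP and IDR. Not given in the sources used here are the aligner, tool versions, thresholds, the use of the input and how the combined list was made. The authors deposited 1 score per peak without naming its scale, and it was used only to describe peaks. The lists hold no read counts, so depth is unknown.

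Mitochondrial entries were left out and repeated intervals were counted once, at their best rank. Each interval was paired with the interval of the other replicate that gave the greatest reciprocal overlap. Density used the largest peak end of any list as the chromosome span. Intervals for shares are 95% Wilson intervals, reflect counting error alone and would be wider if the dependence of neighbouring regions were counted. Python 3.11.15, pandas 2.3.3 and statsmodels 0.14.6 were used. The overlap rule was checked on simulated data.

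The regions, the comparisons and the alternatives were chosen with earlier results of these data known. Named regions are the 10 best by the worse rank, the best on each chromosome, the 5 with the largest rank ratio among better ranks within 3000, those at the limits of the rule and the 3 densest runs, as set by a written rule; ties went to the better replicate 1 rank. The fullest bins and windows, the regions far from combined peaks and the 4000 rank limit were picked after the values were seen. No gene was assigned and no sequence is shown, because the available gene table uses WBcel235 coordinates, not WS220.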

Additional observations from a re-analysis of the deposited data

How the results depend on the processing

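Each of 6 results was recomputed under 8 to 10 alternatives, 57 values in all, and 25 stayed within the stated spread: a factor of 1.5 for the number of regions, the Wilson interval for shares, and the SD between counts from replicates 1 and 2 for the density ratio and rho. That SD is close to 0, so nearly any change exceeds it. The share of regions on X stayed within its interval in all 10 alternatives. With any overlap of 1 bp between replicates there were 11215 regions outside the combined list (61.8% of shared regions), with an autosomal central ratio of 1.26 and a rho of ranks of 0.163. With 75% reciprocal overlap there were 3745 (47.2%), with a ratio of 1.31 and a rho of 0.143. When a combined peak had to cover 50% of an interval to remove it, 61.4% were outside, 30.7% lay within 1 kb of a combined peak, the ratio was 1.31 and rho 0.327. With intervals within 500 bp of a combined peak removed too, the values were 49.4%, 13.9%, 1.20 and 0.171. With the best 15000 entries of each list only, 2178 regions (28.4%) were outside, 27.2% of them within 1 kb, with a ratio of 1.44 and a rho of 0.0410. Counted from replicate 2, the ratio was 1.27 and rho 0.165. With each replicate 2 partner counted once, an alternative chosen after seeing the data, the ratio was 1.26 and rho 0.165. With scores in place of ranks rho was 0.166.

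Without replicate 1 or 2, all intervals of the other list outside the combined list were counted: 22985 to 23371 intervals, of which 20.3% to 21.1% lay within 1 kb of a combined peak, with ratios of 1.11 to 1.14. The ratio stayed above 1 in every alternative tried. The cause of each move was not tested, beyond the fewer or more intervals that an alternative admits by construction. No paired analysis was possible because no result comes from a test and the inputs that share the replicate numbers are not analysed here. The 2 replicates and the unknown depth limit all comparisons to description.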

Other observations

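Of the 5 distinct mitochondrial intervals of replicate 1, 2 overlapped a replicate 2 interval by at least 50% of the length of each, and the combined list holds no mitochondrial entry. They were not counted among the regions described above. Of the 15740 unshared intervals outside the combined list, 3970 overlapped a replicate 2 interval by less than 50%, and 11770 overlapped none. The share that met the overlap rule changed with rank: of all replicate 1 intervals outside the combined list, 53.1% (50.5 to 55.7) met it at ranks 6001 to 8000 and 22.8% (21.98 to 23.6) beyond 20000. It did not rise further at better ranks, with 51.4% (47.4 to 55.3) at 4001 to 6000 and 43.5% (33.5 to 54.1) within 4000.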
